A study of Mus musculus with 12 samples.

Results

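The 39 genes described here encode the proteins that carry glucose into muscle, break it down to pyruvate and lactate, and store it as glycogen. They were chosen by name for these functions, with earlier results of these data known. All 39 were matched by symbol among the 47643 gene identifiers of the deposited count table. The RNA came from the gastrocnemius, the large calf muscle, of 6 female C57BL/6J mice aged 11 weeks. In 3 animals the genotype was control and in 3 it was c-myc over-expression, called Myc below. In every animal the left lower leg was the uncontracted control leg and the right lower leg had undergone acute high-intensity contraction, so each uncontracted leg belonged to an animal whose other leg was contracted. This gave 12 libraries in 4 groups of 3, which are named by genotype, leg and animal number (contracted Myc 2 is the contracted leg of the second Myc animal). How c-myc was over-expressed and in which cells, whether control animals carried a construct, how contraction was evoked and how long afterwards the muscle was taken are not given in the sources used here.

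Glucose enters a muscle fibre through transporters of the SLC2A (GLUT) family, and a hexokinase traps it as glucose phosphate. Glucose phosphate then runs down glycolysis, in which phosphofructokinase is the main regulated step, or is stored as glycogen, and glycogen phosphorylase releases it again when the fibre contracts. Fast fibres, which make up most of the mouse gastrocnemius, rely heavily on glycolysis and glycogen during intense work and export the lactate that results.

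Libraries held 1371732 to 1643216 reads. Mitochondrially encoded genes took 27.1 to 35.2% of them and the 39 genes took 4.82 to 6.73%. Markers of fast fibres summed to 151592 to 200706 CPM in every library, against 3646 to 5128 CPM for slow fibres. CPM are read counts scaled to a common library size with trimmed-mean (TMM) factors. The libraries read the 3′ ends of transcripts, and ends of different genes need not be captured equally. Tests therefore compared libraries of a gene and not genes, and levels set between genes are a description. Myc itself was counted with 0, 1 and 0 reads in uncontracted control, 1, 10 and 59 in contracted control, 11, 9 and 9 in uncontracted Myc, and 32, 0 and 2 in contracted Myc. In animals 2 and 3, the contracted control legs thus had more Myc reads than the contracted Myc legs, and the cause was not tested. Genotypes, and the pairing of legs by animal, are therefore given as labelled. Results that use those 4 libraries are also given without them (the contracted libraries numbered 2 and 3). That run leaves 1 contracted leg per genotype, so a call lost there can reflect fewer legs and is no check on the labels.

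Contraction was compared over both genotypes first, in 6 contracted against 6 uncontracted legs. Of the 39 genes, 34 passed the filter on low counts and were tested. The transcripts of Hk2, Pfkfb4, Slc2a1 and Slc16a1 rose, and those of Slc16a3, Phkg1, Ppp1r3c and Pygm fell (edgeR quasi-likelihood F test, Benjamini-Hochberg adjusted over all 6676 genes tested, adjusted p under 0.05). These 8 genes stand beside a background of 7.47% of all genes tested, with 5.71% higher and 1.77% lower. The 4 that rose encode the first steps of glucose use, a regulator of phosphofructokinase and a lactate transporter, and the 4 that fell encode the other main lactate transporter and 3 proteins of glycogen turnover. The reads counted for Phkg1 cannot be assigned to it with certainty, as described below. The remaining 26 tested genes, which include every tested enzyme from aldolase to lactate dehydrogenase, did not pass. The change was below 0 in 24 of the 34 genes (70.6%, against 50.5% of all genes tested), and the median log2 change was -0.09, against -0.0034 over all genes. Without the 4 contracted libraries numbered 2 and 3, 18 of 34 genes were below 0, with a median of -0.0070. That run kept only the contracted legs numbered 1, and its 34 genes were not the same, since Slc16a1 was below the filter there. The size of each change thus differed widely along the pathway, from 1.90 for Hk2 to -0.63 for Ppp1r3c on the log2 scale.

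**Figure D1:**
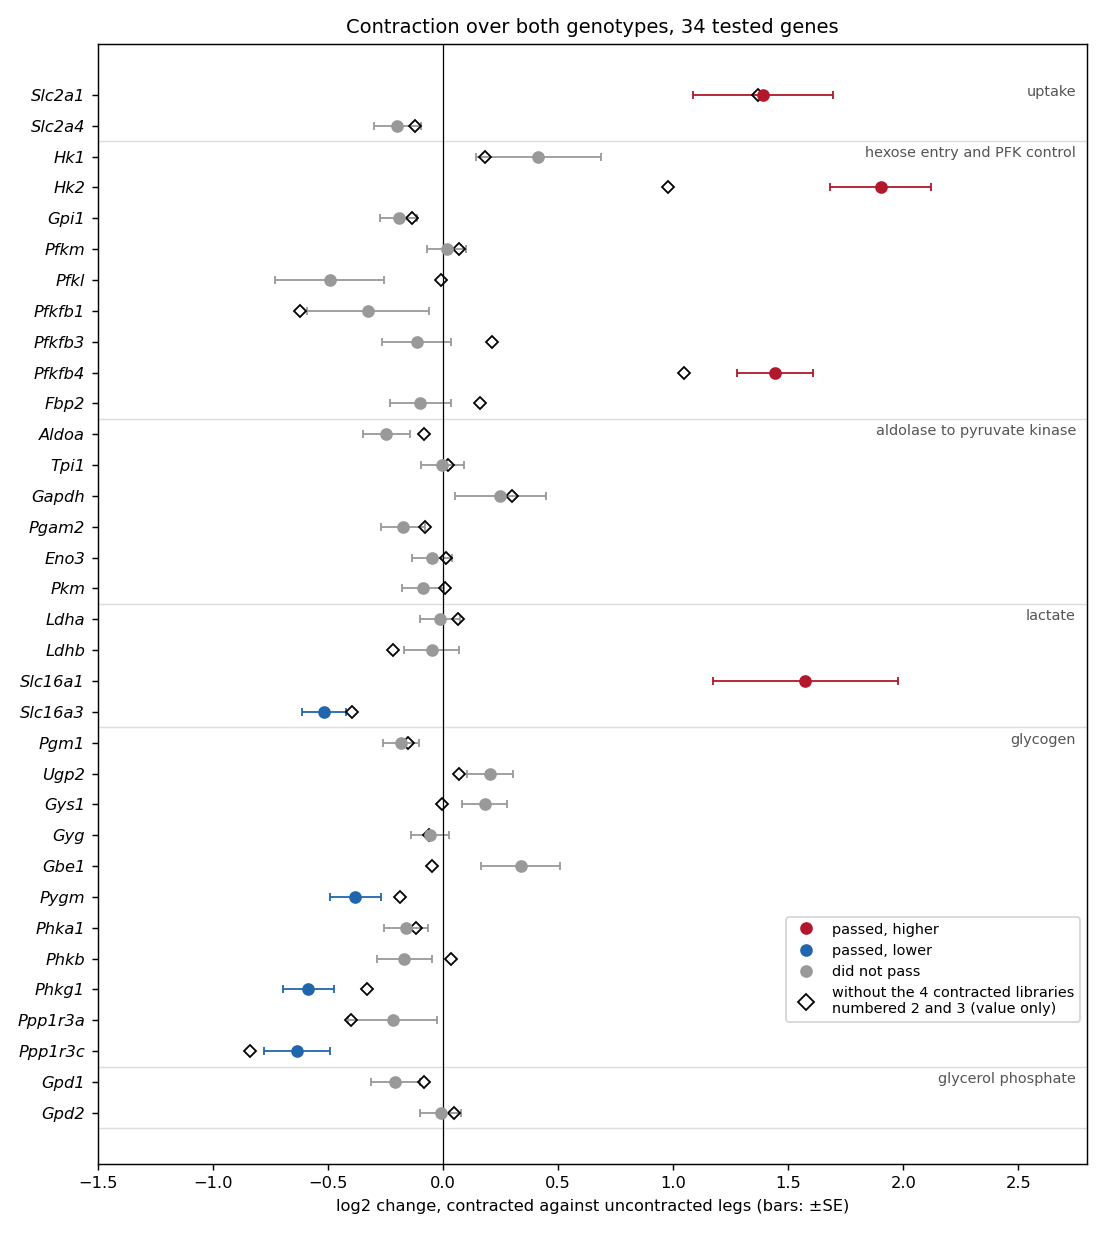
Log2 change with contraction over both genotypes for the 34 tested genes, ordered by role. Points are the change of 6 contracted against 6 uncontracted legs with its standard error, coloured by whether the gene passed, and diamonds show the value without the 4 contracted libraries numbered 2 and 3 (Slc16a1 was below the filter on low counts there). Hk2, Slc16a1, Pfkfb4 and Slc2a1 lie between 1.39 and 1.90, and the other 30 genes lie between -0.63 and 0.41.

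For 6 of these 8 genes, the 4 that rose, the lactate transporter gene that fell and Ppp1r3c with the largest fall, the sequence before the transcription start is shown with 2 short motifs in capitals. These are ACGTG, the core that hypoxia-inducible factors recognise, and TGACG, part of the site of CREB family factors, each on either strand. The stretches come from RefSeq on build GRCm38.p6, read 5′ to 3′ on the gene's strand, and span up to 250 bases before the RefSeq start. They were cut where more than 30 bases lay in an annotated exon. The window of Slc16a3 lies wholly within the annotated span of the gene, after its first annotated start, with 14 bases in an annotated exon. The positions are chr4:119108495-119108740 (Slc2a1, plus strand), chr6:82774455-82774704 (Hk2, minus strand), chr9:108991652-108991807 (Pfkfb4, plus strand), chr3:104638414-104638663 (Slc16a1, plus strand), chr11:120948817-120949066 (Slc16a3, plus strand) and chr19:36736624-36736854 (Ppp1r3c, minus strand).
Slc2a1: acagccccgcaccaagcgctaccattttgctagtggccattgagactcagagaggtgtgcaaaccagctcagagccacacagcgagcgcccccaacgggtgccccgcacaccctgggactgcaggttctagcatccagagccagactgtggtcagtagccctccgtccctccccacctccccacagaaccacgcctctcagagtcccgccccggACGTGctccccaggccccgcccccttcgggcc
Hk2: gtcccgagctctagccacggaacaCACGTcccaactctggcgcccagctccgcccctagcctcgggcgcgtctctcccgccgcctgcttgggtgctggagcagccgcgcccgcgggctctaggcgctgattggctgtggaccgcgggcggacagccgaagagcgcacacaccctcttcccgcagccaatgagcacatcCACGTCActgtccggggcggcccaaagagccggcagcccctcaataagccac
Pfkfb4: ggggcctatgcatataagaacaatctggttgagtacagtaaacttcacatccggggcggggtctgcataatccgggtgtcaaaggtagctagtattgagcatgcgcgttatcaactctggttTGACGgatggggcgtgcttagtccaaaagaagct
Slc16a1: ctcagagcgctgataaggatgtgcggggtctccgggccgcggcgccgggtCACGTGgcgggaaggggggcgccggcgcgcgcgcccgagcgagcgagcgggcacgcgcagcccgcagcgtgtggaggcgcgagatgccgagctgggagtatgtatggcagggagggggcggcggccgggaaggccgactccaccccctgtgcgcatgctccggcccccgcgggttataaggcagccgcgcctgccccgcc
Slc16a3: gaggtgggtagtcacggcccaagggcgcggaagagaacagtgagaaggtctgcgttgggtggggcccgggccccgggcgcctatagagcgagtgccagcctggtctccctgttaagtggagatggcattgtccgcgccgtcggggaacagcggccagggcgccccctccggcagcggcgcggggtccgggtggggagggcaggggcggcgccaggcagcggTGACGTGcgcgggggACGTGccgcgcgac
Ppp1r3c: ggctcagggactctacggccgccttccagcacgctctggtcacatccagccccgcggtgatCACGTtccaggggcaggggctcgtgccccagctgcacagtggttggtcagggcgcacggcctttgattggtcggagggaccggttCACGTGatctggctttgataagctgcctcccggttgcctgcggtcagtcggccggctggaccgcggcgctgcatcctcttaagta
ACGTG or its reverse complement CACGT occurred in 5 of these 6 windows, all but that of Pfkfb4. Hk2 carried it 226 and 52 bases before the start, the latter overlapping a TGACG match, and Slc16a3 carried it 27 and 14 bases before the start. The palindrome CACGTG, which MYC with its partner MAX recognises and which contains ACGTG, occurred in the windows of Slc16a1 (200 bases before the start) and Ppp1r3c (104 bases before it). Among the 36 listed genes with a RefSeq entry, ACGTG occurred in the windows of 18, CACGTG in those of 6 and TGACG in those of 8. Counted over the 52 promoters of these genes, the shares were 40.4%, 11.5% and 19.2%. Over all 32851 promoters of the same length they were 16.6%, 6.02% and 17.8%. The listed promoters were richer in G and C (median 59.8%, against 52.4% over all), and the part of this in the motif shares was not tested. ACGTG occurred in the windows of 3 of the 4 genes that rose and of 3 of the 4 that fell. A match is a string of letters and not a measured binding site.

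Among the transporters that admit glucose, Slc2a1 rose and Slc2a4 did not pass. Slc2a1 (chr4:119108711-119137983) encodes GLUT1, a transporter found in many cell types including the endothelium, and Slc2a4 encodes GLUT4, the insulin- and contraction-responsive transporter of muscle fibres. Slc2a1 stood at 3.22, 2.73 and 3.72 CPM in uncontracted control, 7.79, 9.33 and 6.56 in contracted control, 3.83, 3.18 and 0.783 in uncontracted Myc, and 7.68, 7.98 and 7.91 in contracted Myc. Every contracted leg was above every uncontracted leg. The log2 change was 1.39 ± 0.30 (SE; 2.62-fold; adjusted p = 0.00482). These levels rest on few reads, since 1 read equals 0.609 to 0.729 CPM before TMM scaling. Without the 4 contracted libraries numbered 2 and 3 the change was 1.37, with an adjusted p of 0.391. Slc2a4 lay at 261 to 378 CPM (median 324) in uncontracted and at 224 to 334 CPM (median 289) in contracted legs, with a log2 change of -0.20 ± 0.10. Markers of endothelial cells, which also express Slc2a1, summed to 230 to 309 CPM in uncontracted and 248 to 300 CPM in contracted legs, and 0 of 7 passed. Markers of erythrocytes summed to 314 to 468 and 404 to 1021 CPM, and 4 of the 4 tested rose. The part of these cells in the change of Slc2a1 was not tested, and in whole muscle more cells of a type and more RNA per cell cannot be told apart. The neuronal and white-cell transporter Slc2a3 (GLUT3) was below the filter, with 9 reads over the 6 uncontracted and 9 over the 6 contracted legs.

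The enzyme that commits glucose to the fibre showed the largest change of the 34. Hk2 (chr6:82725025-82774454) encodes the main hexokinase of insulin-responsive muscle. Its level was 157, 127 and 181 CPM in uncontracted control and 326, 617 and 789 CPM in contracted control. In Myc animals it was 207, 151 and 111 CPM uncontracted and 288, 813 and 664 CPM contracted. The groups did not overlap, and the contracted legs themselves split: those of animals numbered 1 stood at 288 and 326 CPM and the other 4 at 617 to 813 CPM. The log2 change was 1.90 ± 0.22 (3.74-fold; adjusted p = 2.57e-06), and every one of 6 animals had more in the contracted leg. Without the 4 contracted libraries numbered 2 and 3, which are the 4 high ones, it was 0.98 (adjusted p = 0.000756). Hk1, the hexokinase of most other tissues and of red cells, lay at 2.73 to 9.02 CPM uncontracted and 6.98 to 12.2 CPM contracted, with a log2 change of 0.41 ± 0.27 that did not pass.

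Of the 4 genes encoding enzymes that set the level of the fructose bisphosphate signal controlling phosphofructokinase, or that reverse its step, Pfkfb4 alone passed. Pfkfb4 (chr9:108991778-109032228) encodes one of the bifunctional enzymes that make and remove this signal. It stood at 13.5, 15.7 and 18 CPM in uncontracted control, 41.1, 61.3 and 47.9 in contracted control, 19.1, 26.1 and 22.7 in uncontracted Myc, and 37.0, 66.3 and 54.2 in contracted Myc. No contracted leg was as low as any uncontracted leg, and the rise was seen in 6 of 6 animals. The log2 change was 1.44 ± 0.16 (2.72-fold; adjusted p = 2.29e-06), and 1.05 (adjusted p = 0.00388) without the contracted libraries numbered 2 and 3. Its relative Pfkfb3 ranged from 60.4 to 121 CPM uncontracted and from 73.4 to 133 CPM contracted, with a log2 change of -0.11 ± 0.15. Pfkfb1 changed by -0.33 ± 0.27 and Fbp2, the muscle fructose bisphosphatase, by -0.10 ± 0.13, and neither passed. For phosphofructokinase itself, the muscle subunit gene Pfkm changed by 0.02 ± 0.09, at a median of 850 CPM uncontracted and 853 CPM contracted. The liver-type subunit gene Pfkl, counted at 5.90 to 16.4 CPM, changed by -0.49 ± 0.24 without passing. Gpi1, which encodes the isomerase between hexokinase and phosphofructokinase, was lower in the contracted leg of 6 of 6 animals. Its change was -0.19 ± 0.08 (adjusted p = 0.17), from 469 to 542 CPM uncontracted and 414 to 478 CPM contracted.

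**Figure D2:**
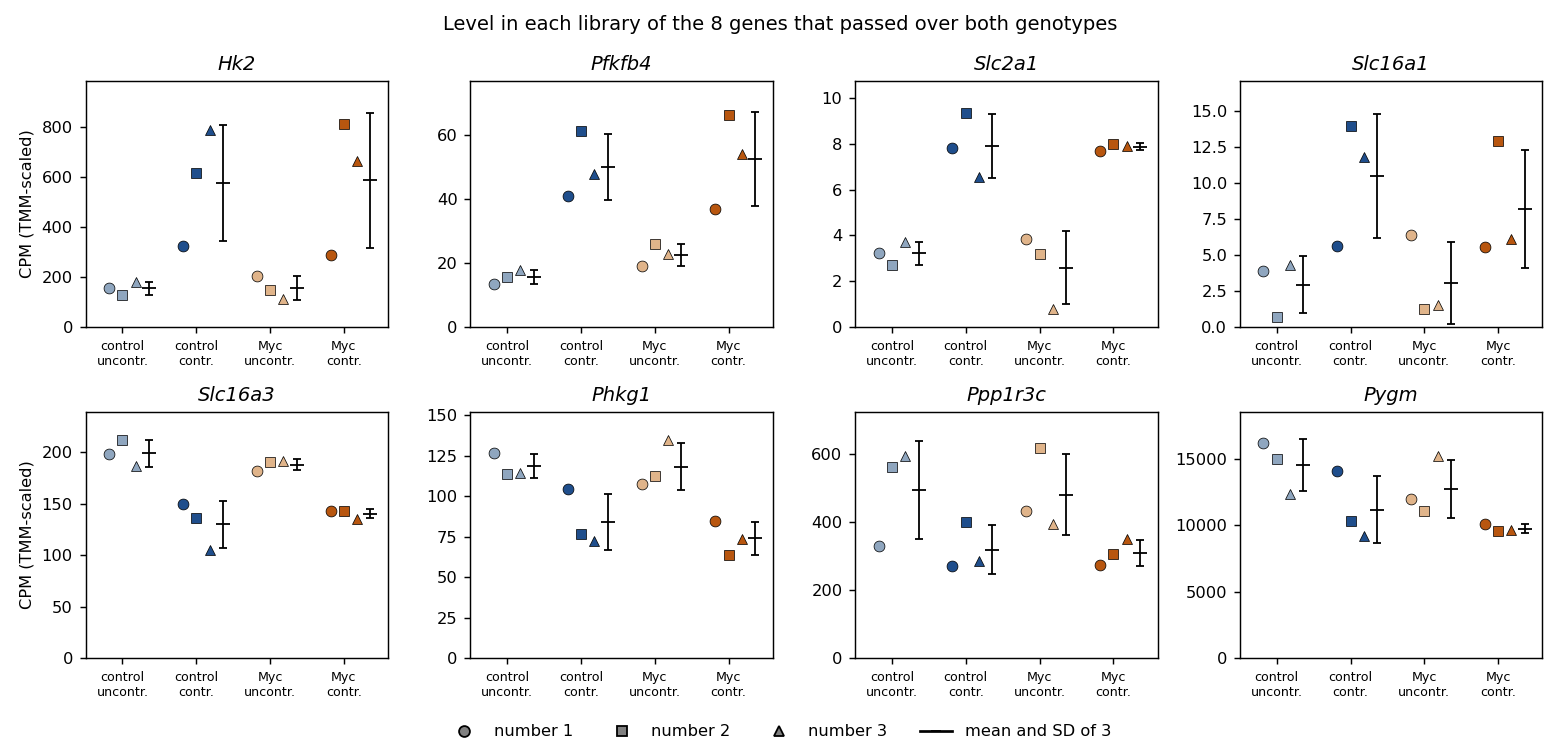
CPM (TMM-scaled, linear axis from 0) in each of the 12 libraries for the 8 genes that passed over both genotypes, with symbols for the animal number and bars for the mean and SD of 3. Contracted Hk2 ranges from 288 to 813 CPM, with the animals numbered 1 lowest in both genotypes, and contracted Slc16a3 lies at 105 to 150 CPM against 182 to 212 CPM uncontracted.

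From aldolase to pyruvate kinase, 0 of the 6 tested genes passed. Aldoa, the muscle aldolase gene, ranged from 21554 to 28624 CPM uncontracted (median 23349) and from 17108 to 26419 CPM contracted (median 19536). It was lower in the contracted leg of 6 of 6 animals, with a log2 change of -0.25 ± 0.10 (adjusted p = 0.169). Without contracted control 1, the highest of the contracted legs, the change was -0.36 and passed (adjusted p = 0.00546). Pgam2, the muscle phosphoglycerate mutase gene, changed by -0.17 ± 0.10, from a median of 9290 to 8646 CPM. Eno3, the muscle enolase gene, changed by -0.05 ± 0.09, from 2823 to 2827 CPM at the median. Pkm, which encodes muscle pyruvate kinase, changed by -0.09 ± 0.09, from 2542 to 2344 CPM. Tpi1, the triose phosphate isomerase gene, changed by -0.0033 ± 0.09. These 4 genes moved by less than 2 standard errors, and their ranges overlapped between legs.

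The counts of 4 genes of this stretch of the pathway have limits of their own. Gapdh, glyceraldehyde phosphate dehydrogenase, had only 18.8 to 54.6 CPM, and 82.9% of the 50-base words in the last 300 bases of its transcripts also occurred in transcripts of 99 other genes. Pgk1, the phosphoglycerate kinase gene, had 2 reads in uncontracted and 2 in contracted legs. Both enzymes are needed by every glycolytic cell, and the cause of their low counts was not tested. Gapdh changed by 0.25 ± 0.20 without passing. Pgam1, the mutase gene of other tissues, had 9 reads uncontracted and 6 contracted and was below the filter. Eno1, the enolase gene of other tissues, was also below it, with 14 reads uncontracted and 47 contracted, a ratio of 3.32 (exact 95% interval 1.80 to 6.54, counting error only). With no filter on low counts Eno1 passed over both genotypes (adjusted p = 0.00151) and in Myc animals (0.00922). Eno1 shared 87.9% of its 50-base words with another gene, Eno1b. The words were shared at 18.1% for Tpi1, 13.9% for Ldha, 4.38% for Ldhb and 2.37% for Aldoa, at 100% for Phkg1, and at 0 for the other 32 genes.

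In lactate handling the lactate dehydrogenase genes did not pass, while the 2 monocarboxylate transporter genes changed in opposite directions. Ldha, the main muscle form that turns pyruvate into lactate, changed by -0.01 ± 0.09, from 1607 to 2011 CPM uncontracted and 1619 to 1950 CPM contracted. Ldhb, the heart form, changed by -0.05 ± 0.12, from a median of 70.9 to 70.1 CPM. Slc16a3 (chr11:120948480-120960868) encodes MCT4, the transporter through which glycolytic fibres export lactate. It stood at 198, 212 and 186 CPM in uncontracted control, 150, 136 and 105 in contracted control, 182, 191 and 191 in uncontracted Myc, and 143, 142 and 135 in contracted Myc. Every contracted leg was below every uncontracted leg. Slc16a3 fell by 0.52 ± 0.09 on the log2 scale (adjusted p = 0.000815), and its change was -0.40 (adjusted p = 0.208) without the contracted libraries numbered 2 and 3. Slc16a1 (chr3:104638668-104658462) encodes MCT1, which serves lactate uptake in oxidative fibres, endothelium and red cells. It stood at 3.87, 0.681 and 4.34 CPM in uncontracted control, 5.67, 14.0 and 11.8 in contracted control, 6.38, 1.27 and 1.57 in uncontracted Myc, and 5.59, 12.9 and 6.09 in contracted Myc. The groups overlapped, since uncontracted Myc 1 exceeded 3 of the contracted legs, and 5 of 6 animals had more in the contracted leg. Its log2 change was 1.57 ± 0.40 (2.98-fold; adjusted p = 0.0162). It did not pass when contracted control 2 (adjusted p = 0.053), uncontracted Myc 2 (0.0507) or contracted Myc 2 (0.0849) was left out, and it was below the filter on low counts without the 4 contracted libraries. The erythrocyte marker sums given for Slc2a1 apply to Slc16a1 as well.

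**Figure D3:**
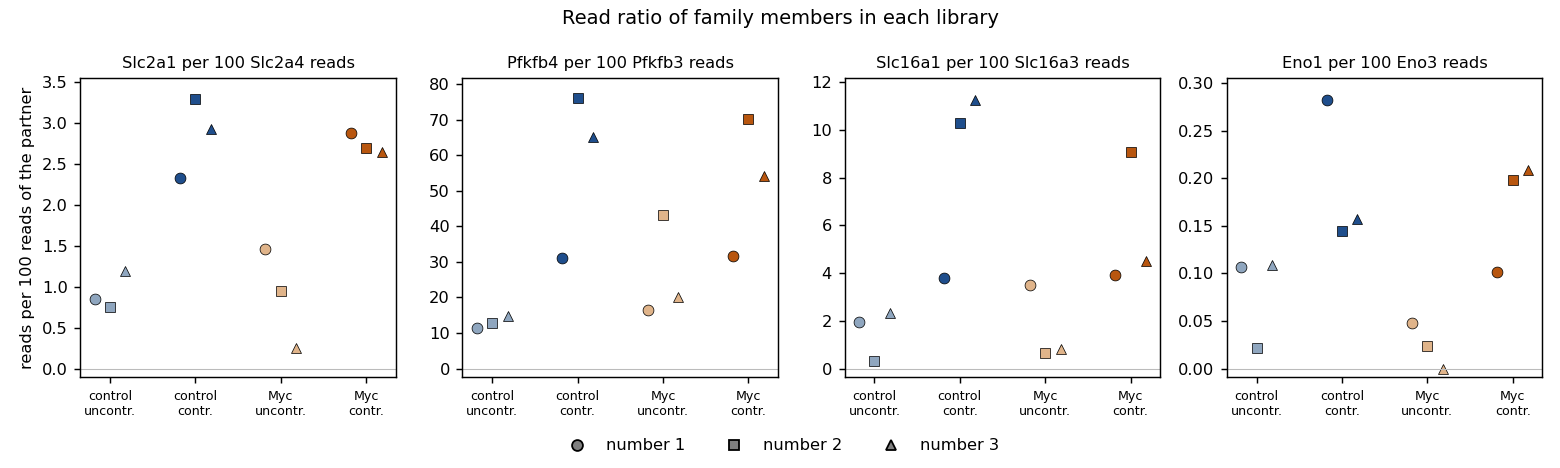
Reads of 1 family member per 100 reads of its relative in each of the 12 libraries, by group, with symbols for the animal number. Slc2a1 per 100 Slc2a4 reads and Slc16a1 per 100 Slc16a3 reads are higher in every contracted than in every uncontracted leg, and the other 2 ratios overlap.

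Reads of 5 genes were also set against those of a relative in the same library. The pairs were chosen after their values were seen, so the ratios are a description with no test, and 3′-end reads of 2 genes need not be captured equally. Reads of Slc2a1 per 100 reads of Slc2a4 ran from 0.254 to 1.47 (median 0.898) in uncontracted and from 2.33 to 3.29 (median 2.79) in contracted legs. Slc16a1 per 100 Slc16a3 reads ran from 0.322 to 3.51 (median 1.39) and from 3.79 to 11.2 (median 6.78). For Pfkfb4 per 100 Pfkfb3 reads the medians were 15.6 and 59.7, and the ranges of 11.5 to 43.2 and 31.0 to 76.0 overlapped. The first 2 ratios separated the legs completely and the third did not. Eno1 per 100 Eno3 reads had medians of 0.0361 and 0.178. Hk2 per 100 Hk1 reads, which are not plotted, ran from 1578 to 4675 uncontracted and from 4130 to 10936 contracted, with overlap.

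In glycogen breakdown, transcripts of phosphorylase fell, as did reads counted for a subunit of its activating kinase, with a limit given below. Pygm (chr19:6384399-6398459) encodes muscle glycogen phosphorylase, which releases glucose phosphate from glycogen. It stood at 16199, 14954 and 12377 CPM in uncontracted control, 14046, 10300 and 9204 in contracted control, 11943, 11083 and 15185 in uncontracted Myc, and 10100, 9529 and 9616 in contracted Myc. It was lower in the contracted leg of 6 of 6 animals, although contracted control 1 lay above 3 uncontracted legs. Pygm fell by 0.38 ± 0.11 on the log2 scale (adjusted p = 0.0372), the weakest of the 8. It passed in 5 of the 12 repeats that left out 1 library. The 7 in which it did not were those without uncontracted control 1 or 2, contracted control 2 or 3, uncontracted Myc 3, or contracted Myc 2 or 3 (adjusted p = 0.0627 to 0.127). Without all 4 contracted libraries numbered 2 and 3 it was -0.19 (adjusted p = 0.84).

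Phkg1 (chr5:129863421-129898549) encodes the catalytic subunit of muscle phosphorylase kinase. It ranged from 108 to 135 CPM uncontracted (median 114) and from 63.9 to 104 CPM contracted (median 75.1), with no overlap. Phkg1 fell by 0.58 ± 0.11 (adjusted p = 0.00136), and its change was -0.33 (adjusted p = 0.574) without the 4 contracted libraries. All of its 50-base words near the 3′ end also occurred in transcripts of other genes, 137 in number, so its reads cannot be assigned to Phkg1 with certainty. Its end also overlaps Sumf2 on the opposite strand, and Sumf2 had 21 reads over the 12 libraries against 1785 counted for Phkg1. The ends of Slc2a1, Tpi1, Gapdh and Gpd1 likewise overlap a gene on the opposite strand. The genes of the regulatory subunits, Phka1 at -0.16 ± 0.09 and Phkb at -0.17 ± 0.12, did not pass.

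On the side of glycogen synthesis, Ppp1r3c fell and no enzyme gene passed. Ppp1r3c (chr19:36731731-36736653) encodes a scaffold that brings protein phosphatase to glycogen and so favours its synthesis. It stood at 328, 559 and 592 CPM in uncontracted control, 269, 400 and 285 in contracted control, 431, 617 and 392 in uncontracted Myc, and 273, 304 and 349 in contracted Myc. The groups overlapped through uncontracted control 1 and contracted control 2, while 6 of 6 animals were lower in the contracted leg. Ppp1r3c fell by 0.63 ± 0.14 on the log2 scale (adjusted p = 0.0062), and its change was -0.84 (adjusted p = 0.0234) without the 4 contracted libraries. With dispersions estimated robustly it did not pass (adjusted p = 0.0571). Ppp1r3a, the gene of the muscle-specific scaffold of the same phosphatase, changed by -0.22 ± 0.19 at 9.18 to 17.2 CPM. Gys1, muscle glycogen synthase, changed by 0.18 ± 0.10, Ugp2, which makes the UDP-glucose it uses, by 0.20 ± 0.10, and Gbe1, the branching enzyme, by 0.34 ± 0.17. Gyg, the glycogenin primer gene, changed by -0.06 ± 0.08. None of these 4 passed. Pgm1, which interconverts the glucose phosphates at the branch to glycogen, lay at 1191 to 1361 CPM uncontracted and 1010 to 1159 CPM contracted. Its legs did not overlap, but the change of -0.18 ± 0.08 did not pass (adjusted p = 0.185). Pgm2, a second phosphoglucomutase gene, had 1 read uncontracted and 4 contracted. In all, 3 of the 34 genes were higher in every contracted leg (Hk2, Pfkfb4 and Slc2a1) and 3 were lower in every contracted leg (Slc16a3, Pgm1 and Phkg1), beside 2.95% and 0.869% of all genes tested.

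The glycerol phosphate shuttle, which returns cytosolic reducing power from glycolysis to mitochondria, did not pass. Gpd1, its cytosolic dehydrogenase, changed by -0.21 ± 0.10, from a median of 451 to 390 CPM. Gpd2, the mitochondrial one, changed by -0.01 ± 0.09 at 113 to 142 CPM.

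Within each genotype, the question was whether contraction had the same effect in control and Myc muscle. In control animals 3 of 34 genes passed, beside 2.8% of all genes tested (2.38% higher and 0.419% lower). Hk2 rose by 1.89 ± 0.31 (adjusted p = 0.00064), Pfkfb4 rose by 1.67 ± 0.24 (adjusted p = 0.000133) and Slc16a3 fell by 0.61 ± 0.13 (adjusted p = 0.00998). In Myc animals 3 of 34 passed, beside 3.89% (3.45% higher and 0.449% lower). There Hk2 rose by 1.91 ± 0.31 (adjusted p = 0.00043), Pfkfb4 rose by 1.22 ± 0.23 (adjusted p = 0.00164) and Phkg1 fell by 0.68 ± 0.16 (adjusted p = 0.014). Slc16a3 in Myc animals (-0.42 ± 0.13, adjusted p = 0.0854) and Phkg1 in control animals (-0.49 ± 0.16, adjusted p = 0.119) did not pass. The median change was -0.14 in control and -0.02 in Myc animals, against 0.0071 and -0.0075 over all genes. In control animals Slc2a1, Hk2, Pfkfb4 and Slc16a1 were higher in all 3 contracted legs than in any uncontracted leg and Slc16a3, Pgm1, Phkg1 and Ppp1r3a were lower, beside 9.68% and 7.13% of all genes. In Myc animals the 4 higher ones were Slc2a1, Hk2, Pfkfb4 and Gys1 (background 10.3%), and the 8 lower ones were Gpi1, Pfkl, Aldoa, Slc16a3, Pgm1, Pygm, Phkg1 and Ppp1r3c (background 9.2%). With 3 legs against 3 such separation is common among all genes, so it is given as a description.

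These calls leaned on single libraries to different degrees. Slc16a3 in control animals did not pass without uncontracted control 2 (adjusted p = 0.0563) or contracted control 3 (0.114), and Phkg1 in Myc animals did not without uncontracted Myc 3 (0.114), contracted Myc 2 (0.123) or contracted Myc 3 (0.0709). Leaving out contracted control 1 raised the count in control animals from 3 to 8. Hk2 did not pass in either genotype with robust dispersions (adjusted p = 0.0896 in control and 0.0662 in Myc). Without the 4 contracted libraries numbered 2 and 3, Hk2 (1.06, adjusted p = 0.0177) and Pfkfb4 (1.37, adjusted p = 0.0142) passed in control animals, and 0 genes passed in Myc animals, where Hk2 changed by 0.89 (adjusted p = 0.0878) and Pfkfb4 by 0.72 (adjusted p = 0.648). Each group then keeps 1 contracted library, which is assumed to vary like the others.

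**Figure D4:**
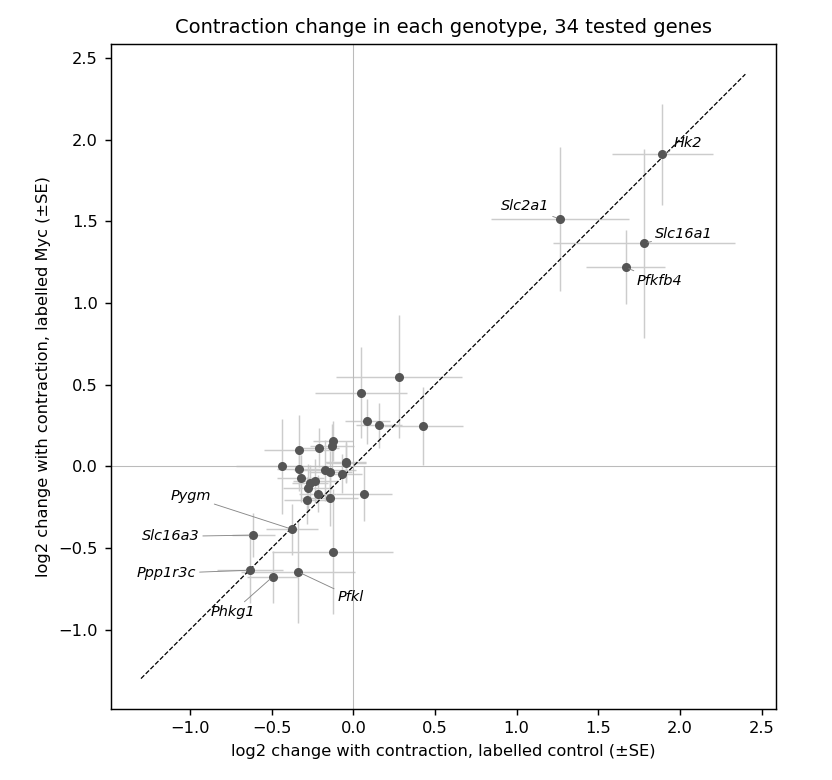
Log2 change with contraction in the labelled control animals (horizontal) against that in the labelled Myc animals (vertical) for the 34 tested genes, with standard errors and the line of equal change. Hk2 lies on the line at 1.89 and 1.91, and Pfkfb4 lies below it at 1.67 and 1.22.

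The difference between genotypes was itself tested as an interaction, and 0 of the 34 genes passed, beside 0% of all genes tested. For Hk2 the interaction was 0.02 ± 0.43 and for Pfkfb4 it was -0.45 ± 0.33 on the log2 scale, with adjusted p of 0.999 and 0.97. A p that misses the threshold does not show that the genotypes responded alike, and the standard errors limit the differences that could be seen. At an unadjusted p under 0.05, 0 of the 34 and 4.96% of all genes stood out, and DESeq2 called 0 of all genes.

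Myc over-expression itself was compared with control in each kind of leg. In uncontracted legs 0 of 34 genes passed, beside 0% of all genes tested, and 0 of the 34 had an unadjusted p under 0.05 against 6.31% of all genes. DESeq2 called 1 gene of all tested, and it was no member of the list. The change was below 0 in 27 of the 34 genes (79.4%, against 50.7% of all genes), with a median of -0.07. The largest differences were those of Pfkl, at 7.09, 13.6 and 8.67 CPM in control and 14.0, 14.0 and 16.4 CPM in Myc legs (0.60 ± 0.31, adjusted p = 0.793), and of Pfkfb4 (0.52 ± 0.27, adjusted p = 0.783). Both were higher in every Myc leg than in every control leg, as were 7.26% of all genes, and Pfkfb3 and Eno3 were lower in every Myc leg, as were 5.57%. Hk2 was at 155 ± 27.1 CPM in control and 156 ± 48 CPM in Myc (mean ± SD, n = 3), and Slc2a1 at 3.22 ± 0.495 and 2.60 ± 1.60 CPM. In contracted legs, Myc reads were 10 and 59 in control 2 and 3 but 0 and 2 in Myc 2 and 3. Between these legs 0 of 34 genes passed, beside 0%, and 0 had an unadjusted p under 0.05 against 3.06% of all genes. DESeq2 called 0 genes there, and 1 listed gene, Pgm1, was higher in every Myc than in every control leg, beside 4.21% of all genes. Hk2 stood at 577 ± 234 CPM in contracted control and 589 ± 270 CPM in contracted Myc, and Slc2a1 at 7.89 ± 1.39 and 7.86 ± 0.157 CPM (mean ± SD, n = 3).

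Other genes of the same pathways, listed by function, were counted over both genotypes, beside the background of 7.47% of all genes tested (5.71% higher and 1.77% lower). Among further glycolytic enzymes 1 of 5 tested passed: Pfkp, the platelet-type phosphofructokinase gene, at 2.55 to 9.29 CPM uncontracted and 5.25 to 11.6 CPM contracted (0.95 ± 0.29, adjusted p = 0.0453). Pfkp passed in 6 of 19 alternative runs. It did not pass with the animal as a replicate block (adjusted p = 0.0917) or in 9 of the 12 repeats without 1 library, and passed without uncontracted control 3, contracted control 3 or contracted Myc 1. Among other glycogen genes 0 of 14 passed. Of 24 genes of glucose uptake signalling and transporter traffic, 2 rose. Prkag2, a regulatory subunit of AMP-activated protein kinase, rose by 1.09 ± 0.19 (adjusted p = 0.000472), from 6.27 to 11.4 CPM uncontracted to 15.1 to 22.5 CPM contracted with no overlap. Irs2, an adaptor of the insulin receptor, rose by 0.94 ± 0.26 (adjusted p = 0.0278) with overlapping legs, a change of 0.14 without the 4 contracted libraries numbered 2 and 3.

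Of 15 genes of pyruvate entry and oxidation, 1 passed: Pdk2, a kinase that restrains pyruvate dehydrogenase, fell by 0.33 ± 0.10 (adjusted p = 0.0466). Of 9 shuttle and transaminase genes, Gpt2, the mitochondrial alanine transaminase, fell by 0.45 ± 0.11 (adjusted p = 0.0153). In the pentose phosphate, hexosamine and polyol branches 0 of 9 passed. Of 15 transcriptional regulators, 2 rose and 1 fell, beside the same 5.71% and 1.77%. With so few genes called in each list, no list is read as differing from the background. Ppargc1a, the coactivator of oxidative metabolism, rose by 2.27 ± 0.26 (adjusted p = 2.75e-06) from 6.36 to 16.1 CPM uncontracted to 24.8 to 72.5 CPM contracted. Hif1a, the hypoxia-inducible factor gene, rose by 0.72 ± 0.18 (adjusted p = 0.0156), from 8.67 to 13.6 CPM uncontracted to 14.9 to 20.7 CPM contracted. Foxo1, a factor active in fasting, fell by 0.70 ± 0.18 (adjusted p = 0.0155).

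Several of these calls ended when 1 library was left out, while Ppargc1a and Prkag2 passed in 12 of 12 such repeats. Irs2 did not pass without uncontracted control 2, contracted control 2, uncontracted Myc 1 or 2, or contracted Myc 2 or 3 (adjusted p = 0.0505 to 0.108). Of these repeats, Pdk2 passed only without uncontracted control 3, contracted control 1, uncontracted Myc 1 or contracted Myc 1, and otherwise had adjusted p of 0.0579 to 0.144. Over all alternative runs it passed in 10 of 20. Gpt2 did not pass without uncontracted Myc 2 or 3 or contracted Myc 2 or 3 (0.0521 to 0.054), Foxo1 without uncontracted control 3 or uncontracted Myc 2 (0.056 and 0.0573), and Hif1a without uncontracted Myc 1 (0.0515) or with DESeq2 (0.0786). Ppargc1a (1.37, adjusted p = 0.00284) and Foxo1 (-1.07, adjusted p = 0.0139) also passed over both genotypes without the 4 contracted libraries numbered 2 and 3. Prkag2 kept its size there but did not pass (1.02, adjusted p = 0.0888), as was the case for Pfkp (1.16, adjusted p = 0.33). Irs2 changed by 0.14 (adjusted p = 0.976), Hif1a by 0.48 (0.767), Gpt2 by -0.31 (0.713) and Pdk2 by -0.15 (0.898), and none of these passed.

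Markers of other cells were also counted over both genotypes, beside 5.71% of all genes tested higher and 1.77% lower. Neutrophil markers summed to 0 to 3.10 CPM in uncontracted and 3.68 to 74.1 CPM in contracted legs, and 2 of the 2 tested rose. Of the 6 neutrophil markers listed, Csf3r had no read in any library. For macrophages 1 of 5 tested rose and 2 fell, at sums of 113 to 204 and 107 to 157 CPM. Of 6 smooth muscle and pericyte genes 1 fell, and 1 of 4 tendon genes rose. So few calls in the macrophage, smooth muscle and tendon lists are not read as a shift of these cells. Among tested fibroblast, adipocyte, Schwann cell and slow fibre genes, 0 of 5, 0 of 3, 0 of 3 and 0 of 9 passed. Fast fibre genes had a median change of -0.19 with 0 of 12 passing, at sums of 165847 to 200706 CPM uncontracted and 151592 to 189464 CPM contracted. Their part in the lower values of Pygm, Aldoa and the other abundant fibre transcripts was not tested.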

How the data were processed

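The authors deposited 1 table of whole read counts per gene, not normalized, for 12 libraries; per the labels' protocols, RNA was taken up in Trizol and libraries were made with a QuantSeq 3′ kit. The submitters' processing notes name FastQC 0.11.5, STAR 2.5.2a, HTSeq 0.6.0, SAMtools and the build mm10, without roles. Annotation, strand setting and filters are not given in the sources used here, so overlapping genes on opposite strands cannot be told apart. Symbols were taken from a table of gene names (47224 of 47643 identifiers matched; the other 419 took at most 0.0128% of a library), positions from GENCODE M21 (GRCm38, the same assembly as mm10) and upstream sequences from RefSeq.

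Titles gave each library's animal, genotype and leg. The test was the 2-sided quasi-likelihood F test of edgeR 4.0.16 (R 4.3.3) on 4 group means over all 12 libraries, after TMM scaling and the filterByExpr filter at 10 counts. P-values were Benjamini-Hochberg adjusted over the 6676 genes tested, with a threshold of 0.05. An SE is the size of a log2 change over the root of its F value. The test was also run on simulated counts with known changes. These were drawn as independent libraries from the model that the test assumes, so that run cannot check the model. Named genes are the 39 listed ones, and beyond them pathway genes that passed. Myc, Csf3r, Eno1b and Sumf2 are named outside this rule, after their values were seen, to describe the libraries or the limits of a count. The members and lists were chosen with earlier results of these data known. Alternatives were DESeq2 1.42.0, other scalings, filters and dispersions, each library left out, the 4 contracted libraries numbered 2 and 3 left out, the libraries of a comparison alone, and the animal as a block. Titles tie both legs to 1 animal, so the legs are paired by animal as labelled. The Myc reads of the contracted libraries numbered 2 and 3 went against their titles. Counts of animals and the animal block therefore hold only as labelled. The correlation of the deviations of paired legs from the group means ran from -0.12 to 0.11. Floors and intervals cover counting error only (reads carry no molecular identifiers): a count of 0 allows up to 3 reads, 1.83 to 2.19 CPM.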

Additional observations from a re-analysis of the deposited data

How the results depend on the processing

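Of the listed genes, 8 passed over both genotypes, 3 in control and 3 in Myc animals. With the animal as a replicate block these counts were again 8, 3 and 3, with the same genes, and it changed no other call named here than that of Pfkp (adjusted p = 0.0917). The block values of Hk2, Pfkfb4 and the others kept their sign except Tpi1 (0.0015). Leaving out 1 library at a time gave 6 to 9, 2 to 8 and 2 to 4 listed genes, and 350 to 723, 116 to 313 and 147 to 517 genes of all tested. Without the 4 contracted libraries numbered 2 and 3, 3, 2 and 0 listed genes passed, and 107, 67 and 59 of all. With no filter on low counts 9, 5 and 5 listed genes passed, the first and last including Eno1, and 695, 305 and 433 of all. Myc in uncontracted legs, Myc in contracted legs and the interaction gave 0 listed genes in each alternative run, and of all genes up to 24, 5 and 18 (with no filter on low counts).

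Among the listed genes over both genotypes, directions turned only for genes that had not passed. Without the 4 contracted libraries the change over both genotypes became 0.21 for Pfkfb3, 0.16 for Fbp2, 0.020 for Tpi1, 0.014 for Eno3, 0.0090 for Pkm, 0.065 for Ldha, -0.0058 for Gys1, -0.046 for Gbe1, 0.036 for Phkb and 0.047 for Gpd2. With library totals alone it became 0.029 for Tpi1, 0.023 for Ldha and 0.019 for Gpd2. Leaving out 1 library spanned 0 for Pfkm (-0.041 to 0.064), Tpi1 (-0.067 to 0.061), Ldha (-0.062 to 0.025), Ldhb (-0.16 to 0.010) and Gpd2 (-0.060 to 0.037). The cause of these shifts was not tested. Slc2a1 and Slc16a1 were counted with few reads, which limits their precision.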
